A study of Arabidopsis thaliana with 13 samples.

Results

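The comparison of 18 h with 0 h was made on 2 of the 13 arrays of an Arabidopsis thaliana series on diurnal and circadian gene expression. The arrays were chosen by their labels, as those that set RNA of 18 h in channel 1 against RNA of 0 h in channel 2. Each was a spotted cDNA array, on which total RNA of both times, labelled in different colours, bound to the same features. The labels of both arrays give no genotype, tissue, plant age or light regime, and they do not say what the hours were counted from. The title of array 1 carries the word biological. Nothing else says whether the RNA of array 2 came from other plants, so the spread between the arrays may be partly technical. The other arrays used beside them compared 6 h (2 arrays), 12 h (5 arrays) and 24 h (1 array) with 0 h. The fit described below took in all 13 arrays. The rest compared 36 h with 24 h, 36 h with 24 h labelled dark, and 60 h with 48 h. The labels of the 60 h array give 12 h of light and 12 h of dark.

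Plants that live under day and night change many transcripts in step with light and with an internal clock. Genes of the antenna proteins, which bind chlorophyll and pass light energy to the photosystems, are a well-known example in leaves: their transcripts are usually most abundant in the day and sparse in the night. Chlorophyll itself is made from tetrapyrrole precursors. Protochlorophyllide oxidoreductase performs its light-dependent step, and geranylgeranyl reductase prepares its phytol tail.

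All values are log2 ratios of 18 h over 0 h after the array median was subtracted. The deposited ratio was read as channel 2 over channel 1 and its sign turned. That direction is likely but not stated. Were the ratio channel 1 over channel 2, all signs below would be reversed. It rests on the usual form of such ratios and on the array labelled dark of the same series. On it the leucine breakdown genes MCCA, IVD and MCCB, known to be induced when sugar runs short, stood at 3.52, 3.06 and 2.68 at the later time. The Calvin cycle genes SBPASE, PRK and RCA stood at -2.67, -1.72 and -1.35 there. Both arrays of 18 h have the same channel order, so a difference between the dyes enters both with the same sign. Limma estimated that dye difference from the 6 h and 12 h arrays, the only comparisons with both orders. A dye-corrected estimate with its standard error is given for some genes. Values given without an estimate still hold the dye difference.

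Array 1 gave a value for 12446 features and array 2 for 12787. The arrays differed in lot, 21 for array 1 and 3 for array 2. Arrays like these give ratios and no counts, so their number limits the precision. On array 1, 11.2% of features were at least 2-fold from the median, and on array 2 this share was 10%. Across the 3668 named genes measured on both arrays, Pearson's r between the arrays was 0.149 and Spearman's rho 0.049, as a description, since both arrays share the 0 h reference time and the channel order. Among the arrays of other times, array 1 of 12 h stood apart: the SD of its log2 ratios was 0.382 and 2.07% of its features were at least 2-fold from the median, against 0.694 to 0.799 and 12.5% to 18.4% on the other 4 arrays of 12 h. The title of array 1 of 12 h carries the word single, as no other title does. The 12 h ranges below are given with and without that array. The ratios of 18 h also moved with the number of the feature. Medians over 32 blocks of 400 consecutive features ran from -0.32 to 0.51 on array 1, first downward to block 16 and then upward along the numbers, and from -0.28 to 0.62 on array 2, with a local peak at each block number divisible by 4. With each block centred on its own median, a scale chosen after the data were seen, r across the named genes was 0.265 and rho 0.157.

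**Figure D1:**
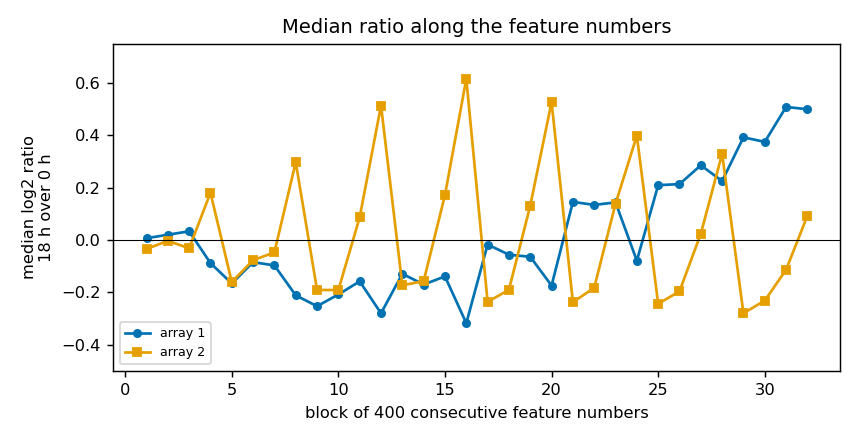
Median log2 ratio of 18 h over 0 h (vertical axis) in 32 blocks of 400 consecutive feature numbers (horizontal axis) for array 1 (circles) and array 2 (squares). Array 1 falls from near 0 to -0.32 at block 16 and then climbs to 0.51, while array 2 swings between -0.28 and 0.62.

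Transcripts of 11 named genes were at least 2-fold higher at 18 h on both arrays, which is 0.3% of the 3668 named genes. Another 33 genes, 0.9%, were at least 2-fold lower on both, and 4 genes, 0.109%, were 2-fold or more in opposite directions. Over all 10949 targets, including features with no single annotated gene, 124 were higher on both (1.13%), 135 lower on both (1.23%) and 99 opposite (0.904%). In limma's fit to all 13 arrays, 0 of 11290 targets passed an adjusted p of 0.05 for 18 h against 0 h (0%). At an unadjusted limma p under 0.05 there were 676 targets, and the smallest adjusted p was 0.132. Among the 10949 targets with a value on both arrays that share was 5.93%. About 1 in 20 unchanged targets reach such an unadjusted p. Without array 2 the count was 156, and of the 155 of these with a value on array 2 only 43 had the same sign there. Over all targets, 25.2% were above 0 on both arrays of 18 h and 25.1% below 0 on both. Without array 1 of 12 h the count of targets passing was 12. Every direction given below is therefore a value on 2 arrays and not a change that passed the test.

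**Figure D2:**
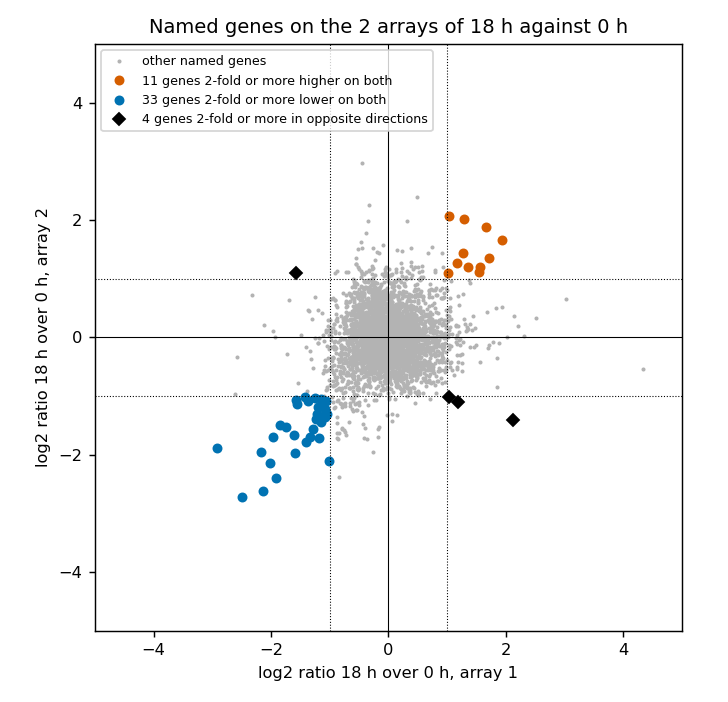
Log2 ratio of 18 h over 0 h on array 1 (horizontal axis) and array 2 (vertical axis) for 3668 named genes, with dotted lines at 2-fold. The 33 genes lower on both arrays form a tail at the lower left, 11 lie at the upper right and 4 in the opposite corners.

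Genes chosen on 1 array were looked up on the other. Of the 100 named genes at least 2-fold lower on array 2, 88 (88%) were below 0 on array 1, against 50.7% of all named genes. Of the 83 at least 2-fold lower on array 1, 61 (73.5%) were below 0 on array 2, against 52.4% of all, and their median there was -0.61. Of the 95 at least 2-fold higher on array 1, 56 (58.9%) were above 0 on array 2, against 47.5% of all, with a median of 0.11. Of the 92 chosen as high on array 2, 48 (52.2%) were above 0 on array 1, against 49.3% of all, with a median of 0.04. After the dye correction, which both arrays share, the shares for the lower genes were 90.6% (chosen on array 2, against 48.6% of all) and 69.1% (chosen on array 1, against 49.0% of all). For the higher genes they were 61.9% (against 51.4%) and 48.3% (against 51.0%). On the block-centred scale the lower genes gave 93.4% (against 47.9%) and 78.7% (against 54.4%). The higher genes there gave 63.6% (against 51.9%) and 65.7% (against 45.5%), with medians of 0.26 and 0.21. These shares describe the arrays and were not tested.

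AT5G25520 ranked first among the lower genes by the smaller of its ratios, with -2.49 on array 1 and -2.72 on array 2, which is 5.63-fold and 6.58-fold lower at 18 h. Its dye-corrected estimate was -2.05 ± 0.32 (SE, limma adjusted p = 0.204, n = 2 arrays). It was also the gene with the smallest adjusted p among the 44 that agreed. On the arrays of 12 h it ranged from -1.96 to 0.12 (to -0.65 without array 1 of 12 h) with a median of -0.67, and on the arrays of 6 h it stood at 0.15 and -0.72. Its low value at 18 h thus lay below all 7 arrays of the earlier times. AT1G72740 was the lowest of the 33 on array 1, at -2.92 (7.55-fold), and stood at -1.89 on array 2.

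AT4G11970 stood at -2.13 and -2.62 on the arrays in order. AT4G22720 gave -2.02 and -2.14, and AT1G48690 gave -2.17 and -1.95. These genes were at least 3.86-fold lower on either array, and the array values of each differed by less than 0.5. AT4G01880 stood at -1.93 and -2.39, but its dye term was 0.62 and its corrected estimate was -1.53 ± 0.38 (limma adjusted p = 0.522). AT3G43740 went the other way under the correction, with -1.75 and -1.53 on the arrays and an estimate of -2.32 ± 0.47 (limma adjusted p = 0.431). Among the next genes, AT2G18970 gave -1.96 and -1.69, AT5G15950 (2 features) -1.61 and -1.67, AT1G48460 -1.59 and -1.97, and AT5G55620 -1.84 and -1.49. AT1G19400 gave -1.40 and -1.79, AT3G18190 -1.34 and -1.70, and AT2G20320 -1.29 and -1.56. The tables used here attach no function to any of these loci.

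AT1G74470, listed as geranylgeranyl reductase, stood at -1.24 on array 1 and -1.39 on array 2 over 2 features. Its dye term was 0.49, so its corrected estimate was closer to 0, at -0.82 ± 0.39 (limma adjusted p = 0.852). On the arrays of 12 h it ranged from -2.07 to 0.20 (to -1.18 without array 1 of 12 h) with a median of -1.27, and it was -0.13 at 24 h. SAMDC (AT3G02470) encodes S-adenosylmethionine decarboxylase, which makes the aminopropyl donor for polyamines. It stood at -1.05 and -1.31, and all 5 of its features were below 0 on each array. The corrected estimate of SAMDC was -0.79 ± 0.49 (limma adjusted p = 0.901).

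Other members of the lower group with a symbol of their own included MTP11 (AT2G39450), a manganese transporter, at -1.37 and -1.09. UGT73B1 (AT4G34138), a glucosyl transferase, stood at -1.08 and -1.36. AAH (AT4G20070), an allantoate amidohydrolase that frees nitrogen from purine breakdown products, stood at -1.07 and -1.09. In these 3 genes the values of the arrays lay close together, each from 1 feature. They and SAMDC lie outside the 15 lower genes ranked first and were chosen for their annotation after their values were seen. Across all 33 lower genes the mean of the arrays ran from -2.61 to -1.08, and 26 were measured by a single feature. The dye term pointed towards the lower side in 30 of the 33. The share over all named genes was not computed, and the 33 were chosen on arrays that hold the dye difference. That count is therefore not a result about these genes. After removal of the dye term 16 of the 33 were still 2-fold lower on both arrays. All 33 stayed below 0 on both, which follows from the 2-fold threshold. The largest dye term that moved any of them towards 0 was 0.62, in AT4G01880. The block-centred scale kept 26 of the 33 at 2-fold.

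The higher group was smaller and its values were more modest. AT4G34950 stood at 1.67 and 1.88, a ratio of 3.18-fold and 3.69-fold, but its corrected estimate was 1.10 ± 0.89 (limma adjusted p = 0.946). That wide error goes with the 12 h arrays, where the same gene ranged from -0.11 (0.70 without array 1 of 12 h) to 4.45. AT3G15630 had the smallest adjusted p of the higher genes, with 1.56 and 1.20 over 2 features and an estimate of 1.54 ± 0.28 (limma adjusted p = 0.355). AT3G62550 (2 features) gave 1.28 and 2.01, with an estimate of 1.56 ± 0.38 (limma adjusted p = 0.522). Both estimates were nearly the same as the plain means, since their dye terms were small.

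PORB (AT4G27440), a protochlorophyllide oxidoreductase and the only higher gene with a symbol of its own, stood at 1.16 and 1.28 over 2 features. On the block-centred scale its values were 0.80 and 1.46. The measured ratios were 2.24-fold and 2.42-fold higher at 18 h, with an estimate of 1.17 ± 0.36 (limma adjusted p = 0.638). AT3G53990 stood at 1.93 and 1.67, AT4G39200 at 1.72 and 1.35, and AT3G17710 at 1.26 and 1.44. AT1G25275 gave 1.55 and 1.11, AT3G51250 gave 1.35 and 1.21, and AT4G09500 gave 1.03 and 2.07. AT1G75900 stood just above the threshold, at 1.01 and 1.09. The dye term pointed towards the higher side in 9 of these 11 genes, again with no share over all named genes computed. After removal of the dye term 8 were still 2-fold higher on both arrays. The block-centred scale kept 7 of the 11 at 2-fold. AT3G51250 kept its 2-fold ratios under block centring but not after the dye correction: its dye term was -0.65 and its estimate 0.63 ± 0.34 (limma adjusted p = 0.862). Just outside the threshold lay AT5G62350 on the higher side, whose smaller value was 0.97, and AT4G31910 on the lower side, at -0.99 as its smaller value. Just inside on the lower side lay AT1G24800 at -1.42 and -1.01, whose features disagreed: 1 of its 2 was above 0 on array 2.

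**Figure D3:**
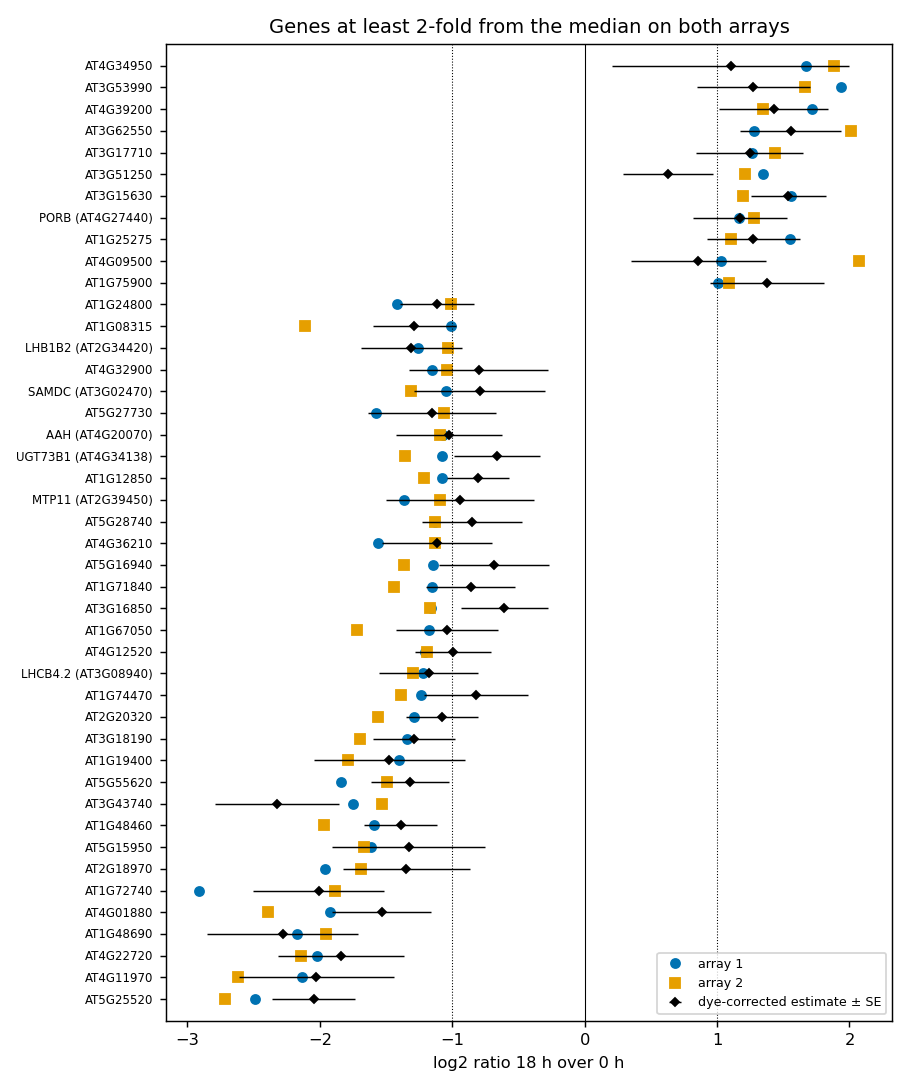
Log2 ratio of 18 h over 0 h (horizontal axis) for the 44 named genes at least 2-fold from the median in the same direction on both arrays, with array 1 as circles, array 2 as squares and the dye-corrected estimate ± SE as diamonds. AT5G25520 is the lowest pair, at -2.49 and -2.72, and most lower genes have an estimate closer to 0 than their arrays.

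Gene lists chosen from known functions were read on the same arrays. Of the 44 agreeing genes, only LHB1B2, LHCB4.2 and PORB belong to a list. Of 30 lists, 15 had at least 3 measured members. In limma 0 list members passed the test, against 0% of all targets. At an unadjusted p under 0.05 stood 3 of 4 antenna genes and 3 of 5 photosystem genes, 1 gene each of the cold, tubulin, autophagy and chlorophyll lists and 0 of the other 9 lists, against 3.65% of all named genes. As background for the lists, 26.5% of all named genes were below 0 on both arrays and 23.4% above 0 on both. The median of all named genes was -0.01 on array 1 and -0.03 on array 2.

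The light-harvesting antenna genes were low as a group, with 4 of 4 measured members below 0 on both arrays. Their median was -1.06 on array 1 and -0.97 on array 2. LHCB4.2 (AT3G08940), which encodes the minor antenna protein CP29 of photosystem II, stood at -1.22 and -1.30, an estimate of -1.18 ± 0.37 (limma adjusted p = 0.680). LHB1B2 (AT2G34420), a gene of the major antenna, stood at -1.26 and -1.03, an estimate of -1.31 ± 0.38 (limma adjusted p = 0.602). It was measured by 13 features, of which 13 were below 0 on array 1 and 12 on array 2. LHCB4.3 gave -0.90 on both arrays, and LHCB4.1 gave -0.71 and -0.59. Antenna genes form families of similar sequence, and cDNA features may bind transcripts of more than 1 member, so the members are not independent.

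Photosystem subunits were low too. PSAE-1, a stromal subunit of photosystem I, stood at -0.61 and -1.25, and all 4 of its features were below 0 on each array. PSBY, a small photosystem II protein, gave -0.94 and -1.10, and PSBW, another, gave -0.74 and -1.16. PSAN, a lumenal subunit of photosystem I, differed between the arrays, at -0.27 and -1.95. The fifth measured gene, PSB27, a photosystem II assembly factor, stood at -0.21 and 0.37. The list's median was -0.61 on array 1 and -1.16 on array 2, with 4 of 5 below 0 on both. The Calvin cycle genes stood nearer 0, with medians of -0.03 and -0.20. RCA, the activase of Rubisco, gave -0.55 and -0.20, SBPASE -0.03 and -0.64, and PRK 0.18 and -0.18.

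The chlorophyll synthesis list, with 3 measured members, did not move as a group. Geranylgeranyl reductase (AT1G74470), at -1.24 and -1.39, was not on that list. PORB stood above 1 on both arrays, while the earlier enzymes HEME2 (0.34 and -0.32) and HEMB1 (0.11 and -0.42) had opposite signs on the arrays. Among light signalling genes, TZP, which acts in light-dependent growth, stood at -0.87 and -1.62, with an estimate of -1.15 ± 0.52 (limma adjusted p = 0.823). PIF7, a phytochrome-interacting factor, gave -0.23 and -0.54, and AT1G72390 gave 0.05 and 0.46.

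Tubulins, the subunits of microtubules, lay above 0 on both arrays in 6 of 8 genes, with medians of 0.30 and 0.58, or 0.06 and 0.48 on the block-centred scale. TUB6 stood at 0.27 and 0.92 and TUA6 at 0.66 and 0.49. TUA5 was near 0 on both arrays, at -0.06 and -0.07, but had a dye term of -1.33 and so a corrected estimate of -1.40 ± 0.39 (limma adjusted p = 0.591). Of 8 autophagy genes 5 were above 0 on both arrays and 0 below on both, with medians of 0.31 and 0.10. ATG8D, which encodes a ubiquitin-like protein of the autophagosome, stood at 0.39 and 1.005, and ATG8E at 0.88 and 0.08. APG8H gave -0.06 and 0.10, and AT5G66930 gave -0.48 and 0.03. The list of branched-chain amino acid breakdown genes had medians of 0.46 and 0.20. It held MCCA at 1.42 and 0.13, ETFQO at 0.53 and 0.28, IVD at -0.03 and 0.37, and MCCB at 0.40 and -0.30. The 2-fold value of MCCA was therefore on array 1 alone.

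Cold and dehydration genes had the largest gap between the medians of the arrays among the 15 lists. COR47, a dehydrin, stood at 0.90 and 0.68, with a dye-corrected estimate of 0.36 ± 0.40 (limma adjusted p = 0.946). Of the 5 genes, 3 were above 0 on both arrays. KIN2, a cold-induced gene, stood at 2.12 on array 1 and -1.40 on array 2, which ranked first among the 4 opposite genes. AT1G54410 stood at 2.02 on array 1, where its 13 features ran from 0.07 to 3.55, and at 0.01 on array 2, where 6 of the 13 were below 0. AT1G54410 passed the test in limma without array 2, at 2.05 (adjusted p = 0.0294), and not with it, at 1.04 ± 0.45 (adjusted p = 0.823). RD2 gave 0.92 and -0.12. The median of the list was 0.92 on array 1 and 0.01 on array 2. The other genes in opposite directions were AT5G27830 at -1.58 and 1.10, AT2G32150 at 1.19 and -1.10, and AT1G06360 at 1.03 and -1.01.

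Histones had medians of 0.41 and 0.24, with 4 of 10 above 0 on both arrays and 1 below, or 6 and 0 on the block-centred scale. HTB2, a histone H2B, stood at 0.85 and 0.41, AT5G65360 at 0.90 and 0.31, AT4G40040 at -0.03 and -0.14, and HIS1-3 at 0.43 and -0.48. Redox enzymes had medians of 0.11 and -0.16, and of 14 genes 4 were above and 2 below 0 on both. Block centring turned that balance, to 2 above and 5 below with medians of -0.05 and -0.24. Glutathione reductases were the lowest of them, GR at -0.89 and -0.79 and GR1 at 0.02 and -1.02. AT5G64120 was the highest at 0.91 and 0.66, followed by the glutathione transferase GSTU25 at 0.54 and 0.10.

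In 4 further lists the medians of both arrays lay within 0.2 of 0. Nitrogen and sulphur assimilation had medians of -0.01 and 0.14 in 7 genes. Its extremes were GTR2, a glucosinolate transporter of the nitrate transporter family, at 0.37 and 0.31, AT1G68570 at 0.01 and 0.40, GTR1 at -0.45 and -0.07, and AT3G21670 at -0.25 and -1.07. Heat shock and chaperone genes had medians of 0.20 and -0.16, and 0 of 4 had the same sign on both arrays. These were Cpn60beta4 at 0.37 and -0.05, HSP93-III at -0.06 and 0.33, Cpn60beta3 at 0.20 and -0.27, and BIP1 at 0.20 and -0.64. The auxin response list, with medians of -0.10 and -0.09, held IAA18 (0.53 and -0.12), WES1 (-0.35 and 0.52), IAA31 (-0.42 and -0.07) and GH3.17 (0.14 and -0.78). Cell wall loosening, at -0.09 on array 1 and -0.07 on array 2, held EXO (-0.28 and 0.71), EXPA9 (-0.09 and -0.07) and XTH16 (0.44 and -0.93).

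Of the other lists, 9 had 1 or 2 measured genes, and 6 had 0, among them the lists of dawn and evening clock genes. Members were matched by symbol, synonym or description, so a gene named otherwise would be missed. The clock is therefore not described here. Of the tissue markers, the root gene PYK10 stood at 1.05 and 0.18 and the seed oil-body gene OLEO3 at 1.06 and -0.41. The flower organ list had 0 measured genes. Ratios give no level, so the tissue was not checked beyond these values, and their part in the results was not tested. Fewer cells of a type and less RNA per cell cannot be told apart in bulk RNA.

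**Figure D4:**
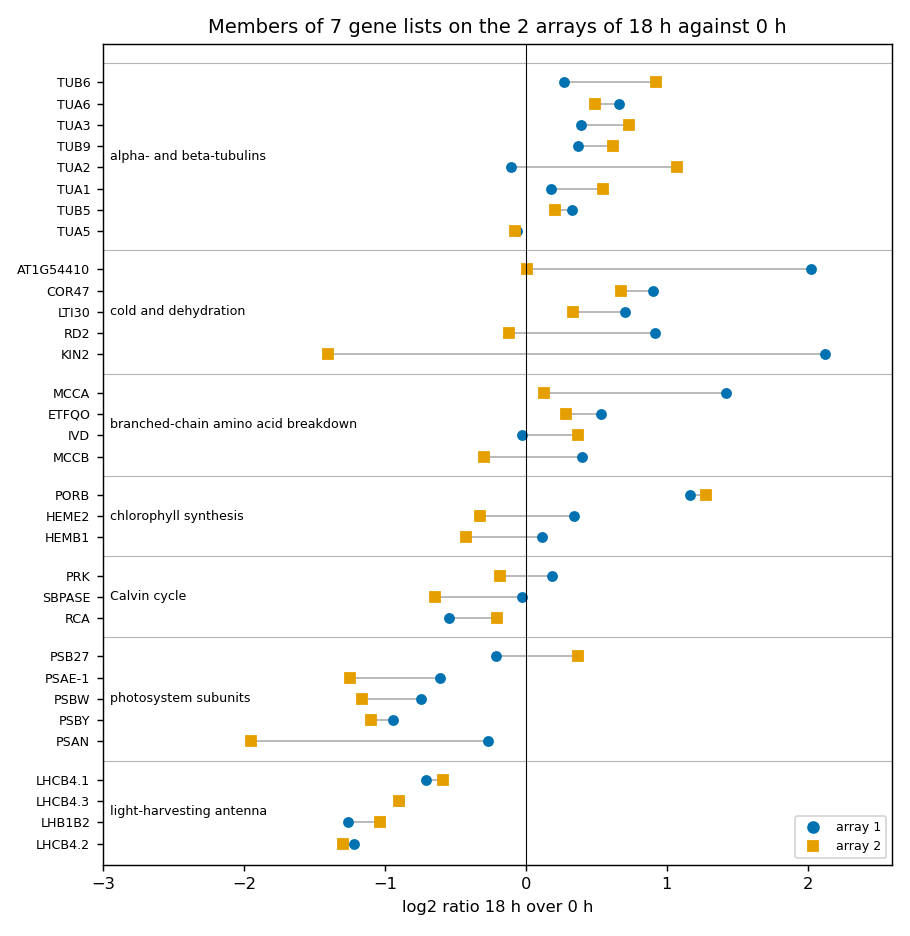
Log2 ratio of 18 h over 0 h (horizontal axis) for the measured genes of 7 lists, with array 1 as circles and array 2 as squares joined by a line for each gene. All 4 antenna genes lie below 0 on both arrays, PORB lies above 1 on both, and KIN2 spans from 2.12 to -1.40.

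The values of 18 h were set beside those of 6, 12 and 24 h, which use the same 0 h reference. PORB stood at 2.48 and 2.05 on the arrays of 6 h, from 0.17 (1.13 without array 1 of 12 h) to 1.47 with a median of 1.19 on the 5 arrays of 12 h, and at 0.09 on the array of 24 h. Its ratio at 18 h lay within the range of 12 h. AT3G62550 stood at 3.53 and 2.76 at 6 h, from 0.33 (1.13 without array 1) to 1.61 at 12 h and at -0.36 at 24 h. AT3G15630 differed from these in order: 0.60 and 0.01 at 6 h, from -0.20 to 0.58 at 12 h with or without array 1 and -0.07 at 24 h, so that its values of 18 h lay above all 8 of these arrays.

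LHB1B2 stood at 0.82 and 1.10 at 6 h, from -1.32 to 0.29 (to -0.22 without array 1) with a median of -0.35 at 12 h, and at -1.42 at 24 h. LHCB4.2 followed the same order, with 0.35 and 0.50 at 6 h, a median of -0.70 at 12 h and -1.26 at 24 h. These antenna genes were thus above 0 at 6 h and below 0 on both arrays of 18 h. LHCB4.1 was above 0 at 6 h too, at 0.25 and 0.93. LHCB4.3 was already below 0 at 6 h, at -0.72 and -0.32, so the order was not shared by all measured antenna genes. In limma the difference between 18 h and 6 h was -2.27 ± 0.51 for LHB1B2 (adjusted p = 0.422) and -1.60 ± 0.50 for LHCB4.2 (adjusted p = 0.540). Of 11290 targets, 0 (0%) passed for the difference between 18 h and 6 h, with 835 at an unadjusted p under 0.05 and a smallest adjusted p of 0.0991. For 18 h against 12 h 0 (0%) passed as well, with 543 at an unadjusted p under 0.05 and a smallest adjusted p of 0.143. About 1 in 20 unchanged targets reach such an unadjusted p. Without array 2 of 18 h the counts were 111 for the difference from 6 h and 99 for that from 12 h.

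**Figure D5:**
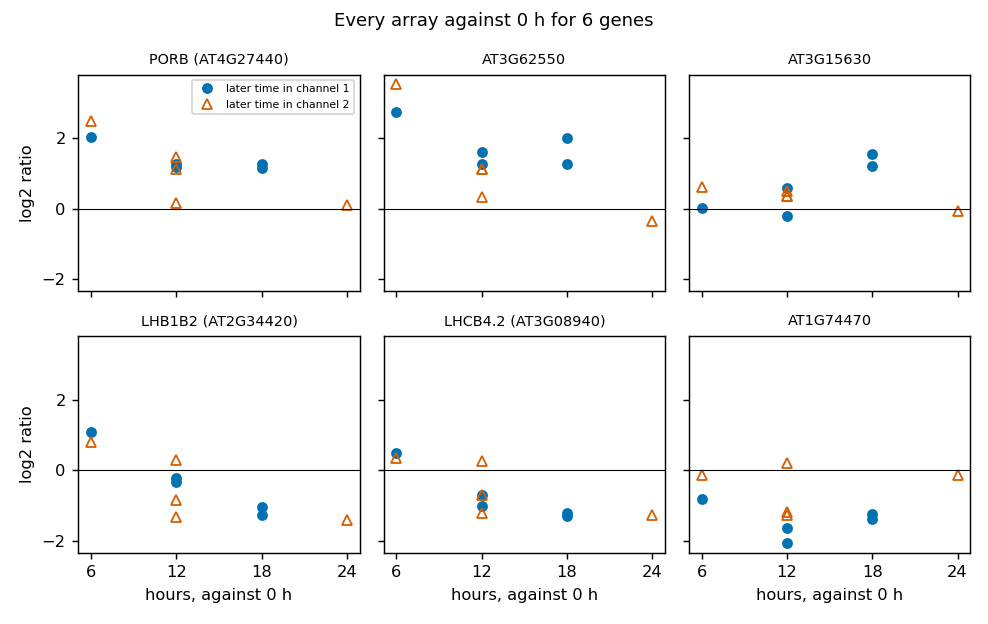
Log2 ratio against 0 h (vertical axis) on every array of 6, 12, 18 and 24 h (horizontal axis) for 6 genes chosen after their values were seen, with filled circles where the later time was in channel 1 and open triangles where it was in channel 2. Both 18 h arrays have the later time in channel 1, and AT3G15630 is highest at 18 h, at 1.56 and 1.20.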

How the data were processed

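For every feature the authors deposited a log2 ratio on each array, made from scans read with ScanAlyze 2.42 (array 1) and 2.33 (array 2) per the labels. Background correction, normalisation and genome build are not given in the sources used here. Log2 was read from the values, since a ratio of 1/2 in log2 occurs 159 times against 20.4 at neighbouring steps. Each array was centred on its median and turned to the later time. Features with a single annotated gene (5197 of 12800, of which 5190 matched TAIR10.1) were averaged to 3689 named genes, and the rest kept as targets.

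Limma 3.58.1 in R 4.3.3 fitted all 13 arrays with 1 coefficient per pair of times and a dye term, for 11290 targets with at least 10 values, with Benjamini-Hochberg adjustment at 0.05. The fit was tested on simulated data. Errors after ± are standard errors. Groups came from the labels of both channels. The members and lists were chosen with earlier results of these data known. Named were the 15 genes each way ranked first by the smaller of both absolute ratios, the 2 highest and 2 lowest of each list with at least 3 measured genes, and 3 opposite genes each way. Alternatives changed the threshold, centring, scaling, dye term, filter, feature averaging, arrays used and block centring.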

Additional observations from a re-analysis of the deposited data

Results flagged for a closer look

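Over the 44 genes that agreed at 18 h, 1 of the 5 arrays of 12 h lay apart from the other 4 by Dixon's test for 7 genes. The values were 0.17 for PORB (AT4G27440), the lowest of the 5, and 0.35 for AT1G72740, 0.28 for AT5G15950, 0.14 for AT1G19400, 0.135 for AT1G67050, 0.165 for AT4G36210 and -0.13 for AT5G28740, each the highest of the 5. Chance flags about 1 in 20 groups. All 7 values came from array 1 of 12 h. Its SD of 0.382 was the lowest of the 13 arrays, and its title carries the word single.

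Over the 44 agreeing genes and the examples of the lists, 97 in all, both arrays of 18 h lay on the other side of 0 from both arrays of 6 h in 12 genes, and the difference was tested in limma. The share of all named genes that do so was not computed, and the 44 were chosen for large values at 18 h. The count is therefore not a result about these genes. The difference of 18 h minus 6 h was -3.12 for AT3G43740 (adjusted p = 0.279), -1.23 for AT2G20320 (0.539), -1.60 for LHCB4.2 (AT3G08940, 0.540), -2.27 for LHB1B2 (AT2G34420, 0.422) and -1.42 for LHCB4.1 (AT5G01530, 0.615). For AT4G12520 it was -1.28 (0.540), for AT5G27730 -1.68 (0.610) and for AT1G24800 -1.25 (0.539). It was -0.96 for PIF7 (AT5G61270, 0.615), 0.64 for ETFQO (AT2G43400, 0.849), 1.05 for MCCA (AT1G03090, 0.707) and 0.96 for ATG8E (AT2G45170, 0.732). MCCA also lay on the other side of 0 from the arrays of 12 h, with a difference of 1.22 (adjusted p = 0.904). None of these differences passed the test.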

How the results depend on the processing

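No paired analysis was possible because the labels give no shared replicate numbers. The count of targets called for 18 h against 0 h, 0 in the fit described, was 12 without array 1 of 12 h. It was 53 when the 2 arrays of 18 h were fitted alone with no dye term, so those calls keep any dye difference. Without array 2 of 18 h it was 156, so leave-outs ranged from 0 to 156. Most of these calls had the other sign on array 2. Over all targets, 25.2% were above 0 on both arrays and 25.1% below 0 on both. For 18 h minus 12 h leave-outs ranged from 0 to 99, and for 18 h minus 6 h from 0 to 111, the highest again without array 2 of 18 h. Block centring, chosen after seeing the data, gave 1 call in each of the 3 comparisons, a target with a value on array 2 only. The count of agreeing genes, 44, was 173 at 1.5-fold and 11 at 3-fold, and ranged from 179 to 194 where a single array decided. The cause of these differences between settings was not tested. Of the named genes' coefficients, 13 of 84 changed sign without the dye term and 8 with block centring, none of them past the test. Without array 1 of 18 h 16 of the 84 changed sign, and without array 2 of 18 h 11 did. AT1G54410 passed only without array 2 (2.05, adjusted p = 0.0294).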
